A study of Rattus norvegicus with 8 samples.

Results

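Complement and coagulation factors are the plasma proteins of clotting, of clot breakdown and of complement, an innate defence cascade, and most of them are made by hepatocytes. A list of 42 such genes was examined in rat liver, and its members were chosen by gene symbol: every probe set whose single annotated symbol was on the list was taken. Of the 42 genes, 36 had at least 1 such probe set, out of 14217 genes with one on the array, and they held 44 probe sets. F7, F11, F13b, Kng1, C2 and Cfb had none and have no expression value here; Kng1 shared 1 probe set with its paralogues, and C2 and Cfb shared 4 with each other. The livers came from Sprague-Dawley rats, an outbred strain. They were males, 8 weeks old, whose drink over 4 weeks had been either sterilized distilled water (control) or hydrogen water, which holds dissolved molecular hydrogen, here at 0.7 mM. From each group, 4 Affymetrix arrays were compared. The study kept 8 animals per group, and the labels do not tie an array to an animal or say whether RNA was pooled, so that the tests rest on the spread among arrays, which may be technical.

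Clotting runs as a chain of proteases, each of which cuts and activates the next, until thrombin (from F2) turns fibrinogen into fibrin. Serpins and the protein C system restrain the chain, and plasmin (from Plg) dissolves the clot. Complement starts from antibody, from lectins that bind microbial sugars, or spontaneously at C3, and ends in a membrane pore built from C5 to C9. In liver, many of these genes depend on the hepatocyte factors HNF1, HNF4 and C/EBP, and some respond to STAT3 in the acute phase.

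The 3 genes of the fibrinogen chains hold the only member that passed the test below, so the 250 bases before a transcript start in RefSeq's promoter table are shown for each, on the build GRCr8. The Fga window is that of 1 of its 2 entries. The Fga and Fgb windows end where RefSeq's gene record begins, but the last 154 bases of the Fgg window lie inside its gene record, which begins further upstream. Capitals mark matches, on either strand, to the letters GTTAATNAT (HNF1), AAAGTCC (HNF4), TTGCNNAA (C/EBP) and TTCNNNGAA (STAT), and no 2 of the marked matches overlap.

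Fga promoter, chr2:170671919-170672168, plus strand: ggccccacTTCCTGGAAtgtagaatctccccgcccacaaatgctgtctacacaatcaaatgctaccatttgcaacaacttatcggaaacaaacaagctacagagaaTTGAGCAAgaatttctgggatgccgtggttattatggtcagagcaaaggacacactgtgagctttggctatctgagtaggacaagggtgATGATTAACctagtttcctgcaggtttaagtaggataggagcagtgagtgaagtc
Fgb promoter, chr2:170700876-170701125, minus strand: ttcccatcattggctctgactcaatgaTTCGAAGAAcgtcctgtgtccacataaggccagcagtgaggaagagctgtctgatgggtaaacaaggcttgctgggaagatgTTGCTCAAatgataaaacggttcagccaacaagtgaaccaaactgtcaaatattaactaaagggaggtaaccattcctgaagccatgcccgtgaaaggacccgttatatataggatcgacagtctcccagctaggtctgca
Fgg promoter, chr2:170652833-170653082, plus strand: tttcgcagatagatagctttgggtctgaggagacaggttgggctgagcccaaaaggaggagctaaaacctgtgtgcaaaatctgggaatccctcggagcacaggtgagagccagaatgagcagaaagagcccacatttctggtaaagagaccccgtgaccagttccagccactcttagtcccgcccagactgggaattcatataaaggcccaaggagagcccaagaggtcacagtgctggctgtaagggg

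The Fga window held the HNF1, C/EBP and STAT letters, and the Fgb window the C/EBP and STAT letters. The Fgg window, whose last 154 bases lie inside its gene record, held none of the 4. Of the 42 genes, 31 had a promoter entry, among them F7, F11, F13b and Kng1, and every entry of a gene was searched. The HNF1 letters occurred before 5 of these 31 genes (16.1%), against 0.747% of all 27457 genes in the table, in the same 250 bases. Those 5 were Fga, F13b, Plg, C5 and C4bpa. The C/EBP letters occurred before 11 of 31 (35.5%), against 9.99% of all genes. The STAT letters occurred before 7 of 31 (22.6%), against 8.20%, and the HNF4 letters before 0 of 31, against 4.36%. Such a match is a description of the letters and not of a bound site.

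After quantile normalization, which gives each array the same distribution of signals, expression of these genes differed little between the livers. Fga, which encodes the alpha chain of fibrinogen, fell 1.37-fold with hydrogen water at 1 of its 2 probe sets, and no other member passed. Of the 44 probe sets, 42 (for all 36 genes) passed the filter on dim signals, and 1 of the 42 had an adjusted p under 0.05 in limma, a linear model fitted over all 15521 tested probe sets. Over all tested probe sets that share was 0.825%, with 0.38% lower and 0.445% higher. The 1 call stands beside 0 other members with an unadjusted p under 0.05, against 12.5% of all tested probe sets. The groups did not overlap at 4 of the 42, Fga at both probe sets, F2 and Serpina10, all lower with hydrogen water, against 7.48% of all tested probe sets in either direction and 3.63% lower.

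**Figure D1:**
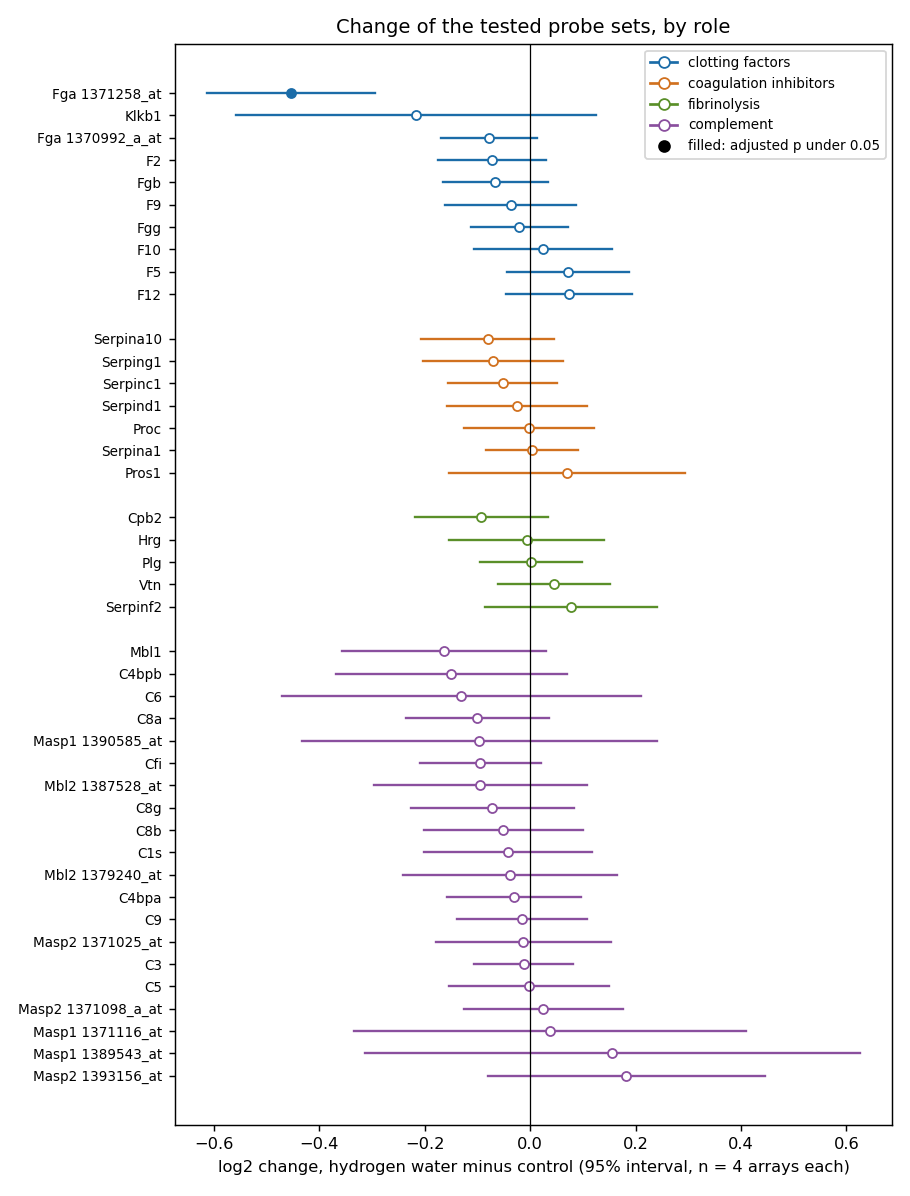
Log2 change with hydrogen water for the 42 tested probe sets, ordered by change within each role. Points are fitted changes and bars their 95% intervals over 4 arrays per group; the filled point, Fga at 1371258_at with a change of -0.45, is the only one past an adjusted p of 0.05.

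The values above are log2(signal + pseudocount) after quantile normalization. Each probe set then takes the value that belongs to its rank on the array, so few values are open to the brightest. How far this narrowed the differences and errors of the bright members was not tested. The control arrays were brighter as deposited, with a trimmed mean signal of 116 ± 18.8 against 92.0 ± 10.4 (SD over 4 arrays per group; exact permutation test, two-sided, p = 0.114). Gapdh, whose 3′ signal over 5′ signal tracks RNA degradation, had log2 ratios of 0.22 ± 0.097 (control) and 0.38 ± 0.084 (hydrogen water; SD over 4 arrays per group; exact permutation test, two-sided, p = 0.0571). Correlations between arrays of a group ran from 0.967 to 0.978 over the tested probe sets.

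The sign of the small differences depended on how the arrays were scaled. The median log2 change of the 42 probe sets was -0.033 after quantile normalization, with 30 of 42 lower, beside a median of -0.0011 and 50.3% lower over all tested probe sets. Without normalization all 42 were lower, with a median of -0.29 beside -0.33 for all tested probe sets. Scaling by the hybridization spike-ins left 7 of 42 lower, with a median of 0.10 beside 0.050. Under trimmed mean scaling 10 of 42 were lower, and under median centring 21 of 42. No direction for the members as a group can therefore be stated, and a shift shared by most transcripts would not be seen after quantile normalization.

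**Figure D2:**
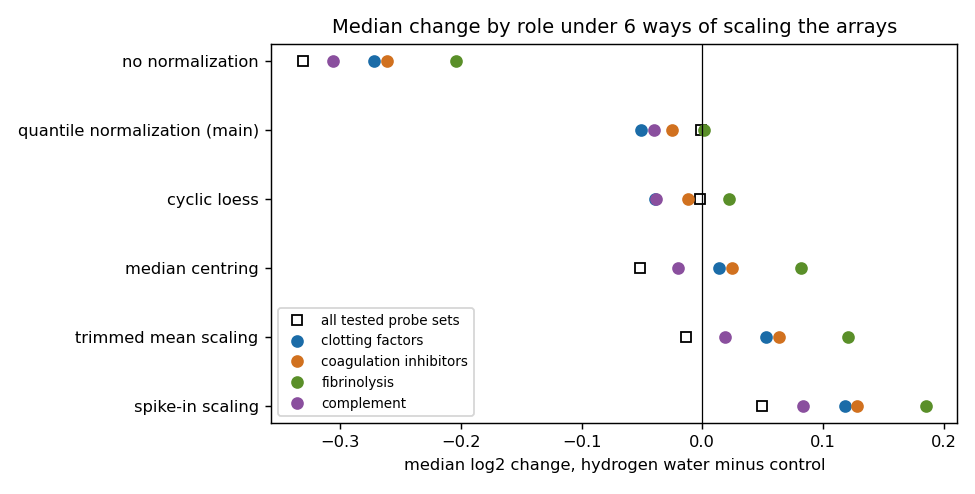
Median log2 change with hydrogen water (horizontal axis) of the tested probe sets of each role (filled circles) and of all tested probe sets (open squares), under 6 ways of scaling the 8 arrays. The medians of the members lie on both sides of 0, from -0.31 for complement without normalization to 0.19 for fibrinolysis with spike-in scaling.

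Fibrinogen is a dimer of alpha, beta and gamma chains, the products of Fga, Fgb and Fgg. At the probe set 1371258_at of Fga the log2 signal was 11.65, 11.66, 11.60 and 11.72 on the control arrays and 11.19, 11.35, 11.04 and 11.24 with hydrogen water. Every hydrogen water array was lower than every control array, and the hydrogen water arrays were more spread. The change was -0.45 ± 0.072 (SE; 95% interval -0.61 to -0.29; limma, adjusted p = 0.0182). As deposited, without any scaling, the signals ran from 2949 to 3892 in controls and from 1869 to 2437 with hydrogen water.

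The other Fga probe set, 1370992_a_at, whose suffix marks probes shared by transcripts of a gene, had log2 signals of 13.04, 13.02, 13.06 and 13.06 in controls and 12.98, 12.97, 12.95 and 12.96 with hydrogen water. These groups did not overlap either, at a far smaller distance: the change was -0.078 ± 0.042 (SE; adjusted p = 0.498), and the probe set did not pass. It was brighter than 99.8% of tested probe sets, and whether a signal so high still follows the amount of RNA was not tested. RefSeq lists 2 curated transcripts of Fga, and which of them each probe set reads was not analysed here. Fgb had 13.20, 13.20, 13.18 and 13.26 in controls and 13.11, 13.21, 13.11 and 13.15 with hydrogen water, with overlapping groups and a change of -0.066 ± 0.045 (SE; adjusted p = 0.624). Fgg, at 13.29, 13.28, 13.24 and 13.28 against 13.21, 13.29, 13.24 and 13.26, also overlapped, with a change of -0.020 ± 0.042 (SE; adjusted p = 0.906). The 2 further probe sets of Fgb were the 2 that did not pass the filter, with deposited signals between 0.643 and 14.6 on all 8 arrays.

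A ratio of 2 probe sets on the same array does not depend on the scaling between arrays. The log2 ratio of 1371258_at to 1370992_a_at was -1.33, -1.42, -1.39 and -1.36 on the control arrays and -1.89, -1.65, -1.94 and -1.71 with hydrogen water. It was lower on each hydrogen water array, by 0.42 on average (-1.38 ± 0.037 against -1.80 ± 0.14, SD, n = 4 each). The ratio of 1371258_at to Fgb differed in the same way, by -0.45. Each gave p = 0.0286, the smallest p that the 70 arrangements of the exact two-sided permutation test allow, and an adjusted p of 0.0571 over the 4 ratios compared. The ratio of 1370992_a_at to Fgb differed by -0.031 (p = 0.457, exact permutation test) and that of Fgg to Fgb by 0.050 (p = 0.0857, exact permutation test). These ratios were chosen after the values of Fga were seen, so they restate the difference between its 2 probe sets on another scale and are no independent test of it.

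**Figure D3:**
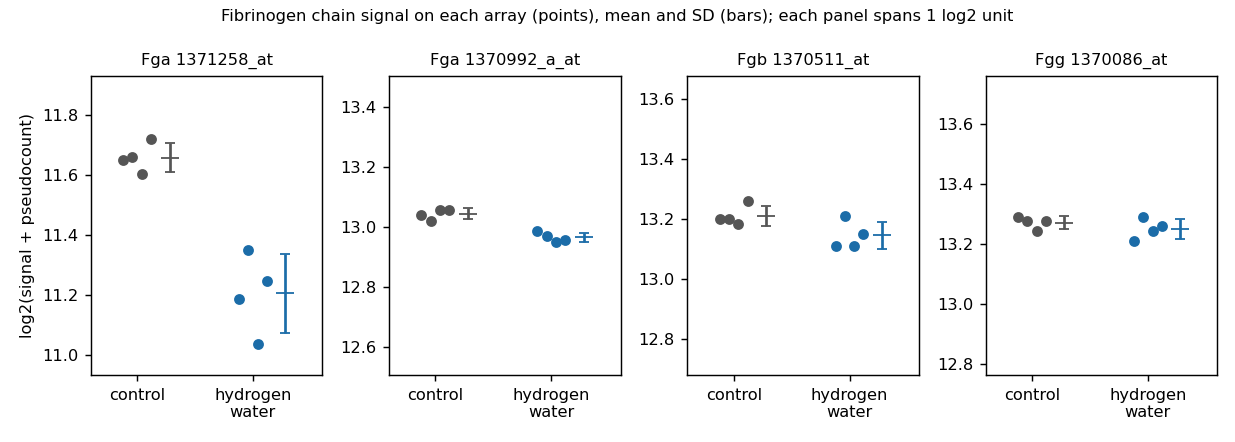
Log2 signal (vertical axis, 1 log2 unit per panel) of the 4 bright fibrinogen probe sets on each array, with group mean and SD beside the points. At Fga 1371258_at the hydrogen water arrays lie between 11.04 and 11.35, below the controls at 11.60 to 11.72, while Fgb and Fgg overlap.

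The Fga call at 1371258_at was not reached in every setting. It had an adjusted p under 0.05 in limma in 17 of 23 alternatives, and its change was negative in all 23. Both counts include the average over both Fga probe sets, which is not a value of 1371258_at alone. It missed the threshold with spike-in scaling (-0.33 ± 0.11, SE; adjusted p = 0.276), without a trend in the variance prior (adjusted p = 0.0999) and with array brightness as a covariate (-0.43 ± 0.10, SE; adjusted p = 0.159). It also missed without control array 2 (adjusted p = 0.0562), without control array 4 (adjusted p = 0.0652) and without hydrogen water array 1 (adjusted p = 0.0650). With the Gapdh ratio as a covariate the change was -0.57 ± 0.087 (SE; adjusted p = 0.0178), and without normalization it was -0.71 ± 0.15 (SE; adjusted p = 0.0122). Averaged over both probe sets, Fga changed by -0.27 ± 0.051 (SE; adjusted p = 0.0446). Those last values are the only ones that moved the change by over 1.5 times, upward in size without normalization and downward in the average. The part of brightness and RNA integrity in the result was not tested beyond these fits.

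**Figure D4:**
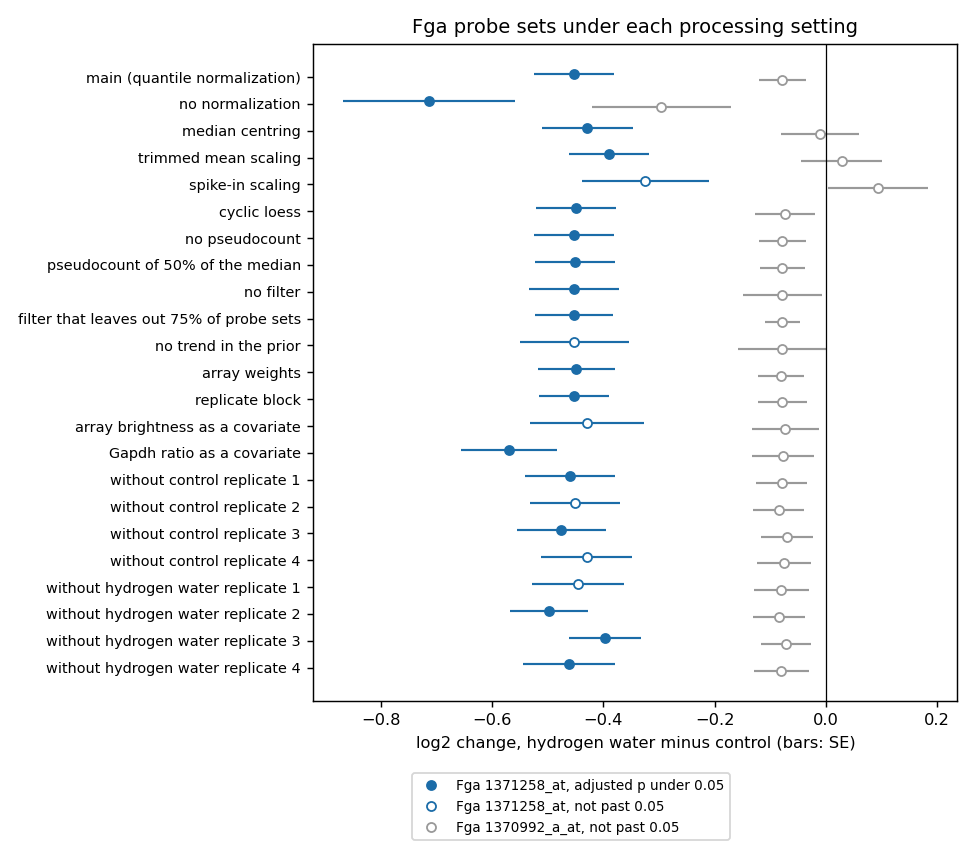
Log2 change of both Fga probe sets (horizontal axis, bars SE) under the main setting and 22 alternatives; averaging the 2 probe sets, which gives a single value, is not drawn. The change at 1371258_at lies between -0.71 and -0.33 throughout, and that at 1370992_a_at between -0.30 and 0.094.

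The other clotting factors did not pass. F2, the precursor of thrombin, had log2 signals of 12.74, 12.67, 12.69 and 12.67 in controls and 12.61, 12.66, 12.57 and 12.64 with hydrogen water. The groups just failed to overlap, and the difference of -0.072 ± 0.047 (SE; 95% interval -0.17 to 0.031; limma, adjusted p = 0.599) turned positive under trimmed mean and spike-in scaling. F9 and F10, vitamin K dependent proteases that act with F8 and F5, differed by -0.037 ± 0.056 and 0.024 ± 0.060 (SE). F5, the cofactor of F10, differed by 0.072 ± 0.052, and F12, which starts the contact pathway, by 0.074 ± 0.054. Klkb1, prekallikrein of the same pathway, was the most variable clotting factor: the hydrogen water arrays ran from 10.60 to 11.48 and the controls from 11.09 to 11.42, and the difference of -0.22 ± 0.15 (SE; adjusted p = 0.643) had an interval from -0.56 to 0.12. Over the 10 probe sets of 9 clotting factors, 1 passed, lower, and the median change was -0.051.

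The 7 coagulation inhibitors held 0 limma calls and 0 unadjusted p under 0.05, with a median change of -0.025. Serpina10, the inhibitor of F10 that works with protein Z, had 11.15, 11.19, 11.15 and 11.20 in controls and 11.14, 11.14, 11.03 and 11.05 with hydrogen water. The groups did not overlap, by a margin smaller than the spread within either, and the difference was -0.080 ± 0.057 (SE; adjusted p = 0.642). Serpinc1, antithrombin, the main inhibitor of thrombin, had 12.73, 12.70, 12.71 and 12.81 against 12.70, 12.68, 12.66 and 12.70, with overlap and a difference of -0.052 ± 0.047 (SE; adjusted p = 0.730). Serping1, the inhibitor of C1 and of the contact proteases, had 12.34, 12.10, 12.28 and 12.26 against 12.13, 12.16, 12.20 and 12.21. Its lowest array was a control, and the difference was -0.070 ± 0.060 (SE; adjusted p = 0.717).

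Among the remaining inhibitors, Serpind1, heparin cofactor II, differed by -0.025 ± 0.060 (SE) and Serpina1, alpha-1 antitrypsin, an inhibitor of neutrophil elastase, by 0.0033 ± 0.040. Proc, protein C, which switches off F5 and F8, differed by -0.0021 ± 0.056, and its cofactor Pros1 by 0.071 ± 0.10. Pros1 had the widest interval of the 7, from -0.15 to 0.29.

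Fibrinolysis was represented by 5 genes, of which limma called 0, with 0 at an unadjusted p under 0.05 and a median change of 0.0015. Plg, the precursor of plasmin, gave 12.81, 12.82, 12.76 and 12.76 on the control arrays and 12.79, 12.82, 12.79 and 12.76 with hydrogen water. Both groups covered the same range, and the difference was 0.0015 ± 0.044 (SE; 95% interval -0.095 to 0.099). Cpb2, a carboxypeptidase that protects fibrin from plasmin, had 11.68, 11.57, 11.61 and 11.68 against 11.55, 11.61, 11.54 and 11.48, with overlap at 1 hydrogen water array and a difference of -0.093 ± 0.057 (SE; adjusted p = 0.573). Serpinf2, the plasmin inhibitor, had 11.05, 10.92, 10.94 and 11.08 against 10.998, 11.01, 11.24 and 11.05, where a single hydrogen water array was high, and a difference of 0.077 ± 0.074 (SE; adjusted p = 0.752). Vtn, vitronectin, which stabilizes the plasminogen activator inhibitor PAI-1 and also blocks the complement pore, had 12.76, 12.89, 12.84 and 12.89 against 12.92, 12.85, 12.89 and 12.90, with overlap and a difference of 0.045 ± 0.048 (SE; adjusted p = 0.789). Hrg, a histidine-rich protein that binds plasminogen and heparin, differed by -0.0067 ± 0.067 (SE).

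Complement was read by 20 tested probe sets of 15 genes, and limma called 0 of them, with 0 at an unadjusted p under 0.05. Of the 20, 16 had a lower and 4 a higher mean with hydrogen water after quantile normalization, against 50.3% lower over all tested probe sets. The median change was -0.040. With spike-in scaling the median was 0.084. Among the recognition lectins and their proteases, Mbl1, a mannose-binding lectin, had the largest difference of the bright complement probe sets. Its log2 signals were 10.45, 10.62, 10.80 and 10.53 in controls and 10.34, 10.43, 10.58 and 10.39 with hydrogen water, overlapping, with a difference of -0.16 ± 0.088 (SE; 95% interval -0.36 to 0.030; adjusted p = 0.503). The 2 probe sets of its relative Mbl2 differed by -0.094 ± 0.091 and -0.038 ± 0.092. The 3 of Masp1, a lectin pathway protease, differed by -0.096, 0.038 and 0.16, each with an SE of 0.15 or more. The 3 of Masp2, which cleaves C4 and C2, differed by -0.013 ± 0.075, 0.025 ± 0.069 and 0.18 ± 0.12. The probe sets of both proteases thus differed in sign, and each 95% interval included 0. The Masp2 value of 0.18 came from 1393156_at, which was brighter than 62.2% of tested probe sets, against 95.3% and 94.7% for its other probe sets. C1s, the protease of the classical pathway, differed by -0.042 ± 0.072.

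C3, the component on which all complement pathways meet, had 13.37, 13.35, 13.30 and 13.35 in controls and 13.28, 13.32, 13.36 and 13.36 with hydrogen water. The groups covered the same range, and the difference was -0.012 ± 0.043 (SE; 95% interval -0.11 to 0.082). The 6 tested genes of the terminal pathway, C5, C6, C8a, C8b, C8g and C9, had differences from -0.13 to -0.0026. All were thus lower, against 50.3% of all tested probe sets, but with spike-in scaling C8a was 0.020 and C9 0.14. C8a, a subunit of the pore, had 11.57, 11.56, 11.51 and 11.51 against 11.36, 11.57, 11.40 and 11.41, where a single hydrogen water array reached the controls, and differed by -0.10 ± 0.062 (SE; adjusted p = 0.570). C9, which forms most of the pore wall, had 12.61, 12.58, 12.50 and 12.56 against 12.62, 12.61, 12.43 and 12.53, with wide overlap and a difference of -0.016 ± 0.056 (SE). C6 was the most variable of the 6, with controls from 10.34 to 11.03 and a difference of -0.13 ± 0.15. C5, C8b and C8g differed by -0.0026 ± 0.069, -0.051 ± 0.069 and -0.071 ± 0.070.

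Of the complement regulators, Cfi, the protease that inactivates C3b and C4b, had 12.63, 12.66, 12.77 and 12.73 in controls and 12.64, 12.65, 12.54 and 12.58 with hydrogen water. The groups overlapped at their edges, and the difference was -0.094 ± 0.052 (SE; adjusted p = 0.519). The 2 chains of its cofactor C4b-binding protein, C4bpa and C4bpb, differed by -0.030 ± 0.058 and -0.15 ± 0.099. C4bpb was lower in all 24 settings, with adjusted p-values in limma from 0.109 to 0.964. The same held for the direction of Klkb1, Mbl1, Mbl2 at 1387528_at and Fga at 1371258_at. Without normalization all 42 tested member probe sets were lower, so none could be higher in all 24. F5, F10, F12, Serpinf2 and Masp2 at 1393156_at were lower in that 1 setting alone.

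Under quantile normalization, the intervals put bounds on what could have been missed at these probe sets. They do not cover the choice of scaling, which moved the members' median from -0.29 (no normalization) to 0.10 (spike-in scaling). C3, for example, was -0.20 and 0.19 under these settings, both outside its interval of -0.11 to 0.082. The 95% interval lay between -0.5 and 0.5 on the log2 scale at 39 of the 42, and between -0.25 and 0.25 at 31, or 73.8%. Over all tested probe sets 7.62% were bounded as closely. Bright probe sets had narrower intervals in general. At a mean log2 signal of 10 or more, 31 of 38 member probe sets (81.6%) and 49.1% of 1087 probe sets of any gene had such an interval, with median SEs of 0.060 and 0.081. The brightest members lay near the top of the scale: in controls C3 averaged 11089 as deposited, where the array maxima ran from 11192.5 to 13354.5. Whether signals there still follow the amount of RNA was not tested. Of the 42, 36 were brighter than 95% of all tested probe sets; the 6 dimmer ones were the 3 of Masp1, 2 of the 3 of Masp2 and 1 of the 2 of Mbl2. The widest interval, from -0.31 to 0.63, belonged to the dimmest of these, Masp1 1389543_at.

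Genes that surround the members in the pathway were read from 4 further lists, by counts in the same limma fit under the main setting alone. Of 46 other complement and coagulation genes, 28 were tested with 34 probe sets. Of these, 0 passed, 2 had an unadjusted p under 0.05, against 12.5% of all tested probe sets, and the median change was -0.073. The smallest p-values belonged to A2m, a broad protease inhibitor that was dim in these livers, with a log2 change of -0.75 ± 0.26 (SE; adjusted p = 0.240), to F2r, a thrombin receptor (-0.36 ± 0.14), and to Colec11, a collectin of the lectin pathway (-0.19 ± 0.089). Of 11 genes of the vitamin K cycle and of factor secretion, 10 were tested. There too 0 passed, 3 of 10 probe sets had an unadjusted p under 0.05, against the same 12.5%, and the median was 0.067. Pcsk6, a proprotein convertase, stood highest at 0.53 ± 0.12 (SE; adjusted p = 0.0680), before Tpst2, a tyrosine sulfotransferase (0.25 ± 0.086), and Mcfd2, which carries F5 and F8 out of the endoplasmic reticulum (0.20 ± 0.080).

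Larger differences were found among the transcription factors and signals that act on the liver's secreted proteins. Of 36 probe sets for 19 of the 21 listed genes, 3 rose and 2 fell, against 0.825% of all tested probe sets that passed in either direction. An unadjusted p under 0.05 was found at 18 of the 36, against 12.5% of all tested probe sets. The list was drawn up with earlier results of these data known, so these shares describe it and are no test of it. Probe sets of a gene with several, such as Cebpa, were counted separately. Stat3, the acute phase transcription factor, rose at 2 probe sets, from 7.80 ± 0.060 to 8.58 ± 0.19 and from 8.71 ± 0.29 to 9.61 ± 0.23 (SD, n = 4 each; limma, adjusted p = 0.0108 and 0.0225). Nr0b2, a nuclear receptor that represses bile acid synthesis, rose by 1.46 ± 0.29 (SE; adjusted p = 0.0483). Hhex, a homeobox factor of liver development, had a log2 change of -1.98 ± 0.18 (SE; adjusted p = 0.00183) and so fell. Onecut1, also called HNF6, fell by 2.54 at 1 probe set (SE 0.47; adjusted p = 0.0331), and its other tested probe set differed by -2.73 ± 0.57 (SE; adjusted p = 0.0578). Any link between these factors and the members was not tested.

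Acute phase proteins, which the liver makes in inflammation, were tested at 21 probe sets for 18 of 21 listed genes. Of these 0 passed, 2 had an unadjusted p under 0.05, against 12.5% of all tested probe sets, and the median was 0.015. Besides A2m, the smallest p-values were those of Cd14, a lipopolysaccharide receptor, at 0.27 ± 0.079 (SE; adjusted p = 0.171), and Hpx, the haem carrier hemopexin, at -0.097 ± 0.045 (SE; adjusted p = 0.417).

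The libraries are bulk liver, in which fewer cells of a type and less RNA per cell cannot be told apart. Hepatocyte markers were tested at 22 probe sets for 15 of 16 listed genes, 0 of which passed, with a median change of 0.045. An unadjusted p under 0.05 was found at 1 of the 22, Tdo2 at 0.50 ± 0.15 (SE; limma, adjusted p = 0.175). The summed normalized signal of the hepatocyte markers ran from 106870 to 115618 in controls and from 111416 to 119105 with hydrogen water, overlapping. These markers were bright, at a median log2 level of 12.56, where quantile normalization leaves few values. The sums therefore say little about hepatocyte content. No probe set passed for markers of Kupffer cells (10 tested), endothelial cells (13), stellate cells (11), platelets (3), neutrophils (1), lymphocytes (1) or erythroid cells (3). Stellate cell markers had a lower mean with hydrogen water at 10 of 11 probe sets, against 50.3% of all tested probe sets. Their median change was -0.15. Endothelial markers had a higher mean at 8 of 13. An unadjusted p under 0.05 was found at 3 of these 13, all higher, against 12.5% of all tested probe sets. They were Stab2 at 0.42 ± 0.13 (SE; limma, adjusted p = 0.205) and Lyve1 at 0.38 ± 0.13 and 0.28 ± 0.10 (SE; adjusted p = 0.234 and 0.272). Kupffer cell markers had a lower mean at 4 of 10, and 1 had an unadjusted p under 0.05, Lyz2 at -0.41 ± 0.15 (SE; limma, adjusted p = 0.268). For cholangiocytes, the bile duct cells, 3 of 7 listed genes were tested, 0 passed, and all 3 had a lower mean. The summed signal of these markers did not overlap, at 1251 to 1857 in controls and 800 to 1140 with hydrogen water. That sum was mostly Krt18, also made by hepatocytes, with a control mean log2 signal of 10.47 against 6.88 for Epcam and 4.50 for Krt19. Krt18 differed by -0.71 ± 0.15 (SE; limma, adjusted p = 0.0576), Epcam by -0.37 ± 0.17 with overlap, and Krt19 by -0.035 ± 0.30. The part of cell makeup in the Fga result was not tested.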

How the data were processed

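Total RNA of rat liver was hybridised to 8 Affymetrix arrays, 4 per group. The authors deposited an intensity per probe set, a MAS5 signal per the submitters' processing notes; its version and scaling target were not given in the sources used. Median signals ran from 17.2 to 26.8 per array, and the number of arrays limits the precision. After leaving out 57 control probe sets, signals were quantile normalized and converted to log2(signal + 2.048), the pseudocount being 10% of the median. A fold change on this scale understates that of dim genes. The 15521 of 31042 probe sets at or above the median level were fitted with limma 3.58.1 (R 4.3.3; lmFit, eBayes with a trend), with Benjamini-Hochberg adjustment over all tested and a threshold of 0.05. The fit was tested on simulated data.

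Probe sets were named from GEO's platform annotation, and the 44 member probe sets matched RefSeq by Entrez ID. Values on every array are given for members past the threshold, for the 3 smallest p in each of 4 roles, and for F2, Fgb, Serpinc1, Plg, C3 and C9; other members are named with their change, and each list by its genes past the threshold or its 3 smallest p. Fga at 1370992_a_at, Fgg and the arrays of other members were added after their values were seen. Members and lists were chosen with earlier results of these data known. Alternatives covered scaling, pseudocount, filter, variance prior, array weights, covariates, gene means, a replicate block and leaving out each array.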

Additional observations from a re-analysis of the deposited data

How the results depend on the processing

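Of 345 values (15 named members under 23 alternatives), 303 kept their direction and side of the threshold, 6 (all Fga) missed it, and 36 reversed, 0 of which passed. Without normalization Serpinf2 was -0.20, Vtn -0.16 and Plg -0.22. With median centring Fgb was 0.021, Serpinc1 0.0024, C3 0.082 and C9 0.034. With trimmed mean scaling F2 was 0.036, Fgb 0.060, Serping1 0.013, Serpinc1 0.041, Cfi 0.021, C3 0.12 and C9 0.073. With spike-in scaling F2 was 0.10, Fgb 0.12, Serpina10 0.021, Serping1 0.078, Serpinc1 0.11, Cpb2 0.029, Cfi 0.085, C8a 0.020, C3 0.19 and C9 0.14. With cyclic loess C3 was 0.0092. With brightness as a covariate Serping1 was 0.022, Vtn -0.010 and Plg -0.010, and with the Gapdh ratio Serping1 was 0.033, Plg -0.015 and C3 0.0033. Leaving out each array gave Plg -0.0074 to 0.010, C3 -0.025 to 0.0056, C9 -0.040 to 0.024 and Fga -0.50 to -0.40.

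The 128 calls over all tested probe sets became 505 without normalization, 64 without a prior trend, 12 with the brightness covariate, 239 with the Gapdh covariate, 78 over gene means and 55 to 197 on leaving out an array. The share of higher calls, 53.9%, was 4.16% without normalization, 35.0% with median centring and 70.8% with spike-in scaling. The 1 member call became 0 with spike-in scaling, without the trend and with the brightness covariate, and was 0 to 1 on leaving out an array. The members' median change, -0.033, was -0.29 without normalization, 0.00044 with median centring, 0.039 with trimmed mean scaling, 0.10 with spike-in scaling, -0.012 with the brightness covariate and -0.042 to -0.013 on leaving out an array. The causes were not tested. Same-numbered arrays did not deviate together (correlations -0.10, 0.042, 0.19 and -0.0029; only number 3 matched itself best), and a replicate block gave 181 calls and 1 member call. Dim probe sets have wide intervals.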
